A study of Mus musculus with 18 samples.

Results

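Differentiating spermatogonia were compared with undifferentiated spermatogonia through RNA read counts of 6 libraries, 3 labelled Diff.Spg and 3 labelled Undiff.Spg, out of 18 libraries of 6 germ cell populations in the series. The labels do not spell the 2 names out, and in this field they usually stand for differentiating and undifferentiated spermatogonia. Both groups were sorted on an Aria 3 from testes of adult male mice described as Stracre-GAG-tdTomato, so the Cre and reporter transgenes were carried by the Diff.Spg and by the Undiff.Spg cells alike. The strain is given as C57BL/6, while the protocol names the background as C57BL/5. No label read here states the gates of the sort, or how many cells or mice stand behind a library. The labels do not say that replicates came from separate mice, so a p-value here sets a difference against the variation among libraries, which could be purely technical. The members are all expressed genes, 18547 of the 46603 in the table.

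Spermatogonia are the mitotic germ cells of the testis, and they lie against the wall of the seminiferous tubule. Undifferentiated spermatogonia hold the stem cells, which are kept by GDNF and FGF from the surrounding somatic cells. Retinoic acid moves them into the differentiating state, in which they depend on the receptor tyrosine kinase KIT, divide in rapid succession as clones joined by intercellular bridges, and then enter meiosis.

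Kit and Gfra1 are the defining genes of the 2 labels, and both followed them. Kit, the receptor of stem cell factor, stood at 647, 532 and 590.1 CPM in the 3 Diff.Spg libraries, against 17.7, 18.2 and 15.9 CPM in the 3 Undiff.Spg libraries (CPM expresses a gene's reads relative to the library's total, scaled by TMM). Gfra1, which encodes the co-receptor through which GDNF acts, stood at 5.47, 7.5 and 11 CPM in the 3 Diff.Spg libraries, against 260.2, 202 and 222 CPM in the 3 Undiff.Spg libraries. The groups were far apart for both genes, with a 34.1-fold higher level of Kit and a 28.4-fold lower level of Gfra1 in Diff.Spg. Bulk RNA does not tell apart fewer cells of a kind and less RNA per cell, for these genes or for any other given here. In what follows, values after ± are SDs of 3 libraries beside a CPM and standard errors beside a log2 fold change, which is always Diff.Spg over Undiff.Spg.

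The 6 libraries held 11777947, 14660378 and 13064934 counts in Diff.Spg and 13211567, 12325610 and 11943107 counts in Undiff.Spg. Libraries of a group correlated at 0.991 to 0.993 in log2 CPM over genes. Pairs of Diff.Spg libraries differed by 2.49 to 3.05 times the counting variance and the Undiff.Spg pair of replicates 2 and 3 by 3.7 times. The 2 pairs with Undiff.Spg replicate 1 differed by 9.2 and 9.32 times. This measure, on counts scaled by total reads, set that library apart. Its correlations did not, at 0.9915 and 0.9906 against 0.991 between Undiff.Spg replicates 2 and 3. Markers of other testis cell types were summed in each library. The 15 macrophage and leukocyte markers came to 2.92 to 3.98 CPM in the Diff.Spg libraries and 7.72 to 43 CPM in the Undiff.Spg libraries, with the highest sum in Undiff.Spg replicate 1 and 7.72 and 9.39 CPM in replicates 2 and 3. The 13 peritubular myoid markers came to 39.2 to 45 CPM in the Diff.Spg libraries and 105 to 154 CPM in the Undiff.Spg libraries, most of it from the collagen gene Col1a1 (29.98 ± 1.9 CPM in Diff.Spg, against 113 ± 27.3 CPM in Undiff.Spg), and the 10 endothelial markers to 28.3 to 31.2 CPM in the Diff.Spg libraries and 41.7 to 50.4 CPM in the Undiff.Spg libraries. The 20 Sertoli cell markers, which include Dmrt1 and Tjp1 that germ cells also express, came to 1049 to 1107 CPM in the Diff.Spg libraries and 1229 to 1331 CPM in the Undiff.Spg libraries, with no read of the defining receptor gene Fshr in the 6 libraries. The 10 Leydig cell markers came to 22.1 to 26 CPM in the Diff.Spg libraries and 18.7 to 23.5 CPM in the Undiff.Spg libraries, with no read of Lhcgr. The 15 spermatocyte markers came to 683 to 720.5 CPM in the Diff.Spg libraries and 368 to 424 CPM in the Undiff.Spg libraries, and the 22 round spermatid markers to 172 to 190.2 CPM in the Diff.Spg libraries and 93.6 to 122 CPM in the Undiff.Spg libraries, most of it from Odf2 (154 ± 2.9 CPM in Diff.Spg, against 69 ± 3.19 CPM in Undiff.Spg). The part of such cells in any result below was not tested.

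At an adjusted p under 0.05 in edgeR's quasi-likelihood test, 3788 genes (20.4% of those tested) were higher and 4273 (23%) lower in Diff.Spg. With a change of at least 2-fold added, 1763 (9.51%) were higher and 2753 (14.8%) lower. Large falls outnumbered large rises. Of the higher genes, 64 differed by more than 16-fold and 158 by 8- to 16-fold, and of the lower genes 219 and 335. The median log2 fold change over all tested genes was 0. Over all tested genes, 31.9% had the 3 Diff.Spg libraries above the 3 Undiff.Spg libraries without overlap and 32.9% had them below, so separate groups alone are common in these data. With only these 6 libraries in the model, 5438 of 14837 tested genes were higher and 5549 lower at an adjusted p under 0.05, and list counts that move by over 1.5 times in that way, or when 1 library is left out, are given in brackets. In the main fit, the background for every list count below is 20.4% higher and 23% lower.

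**Figure D1:**
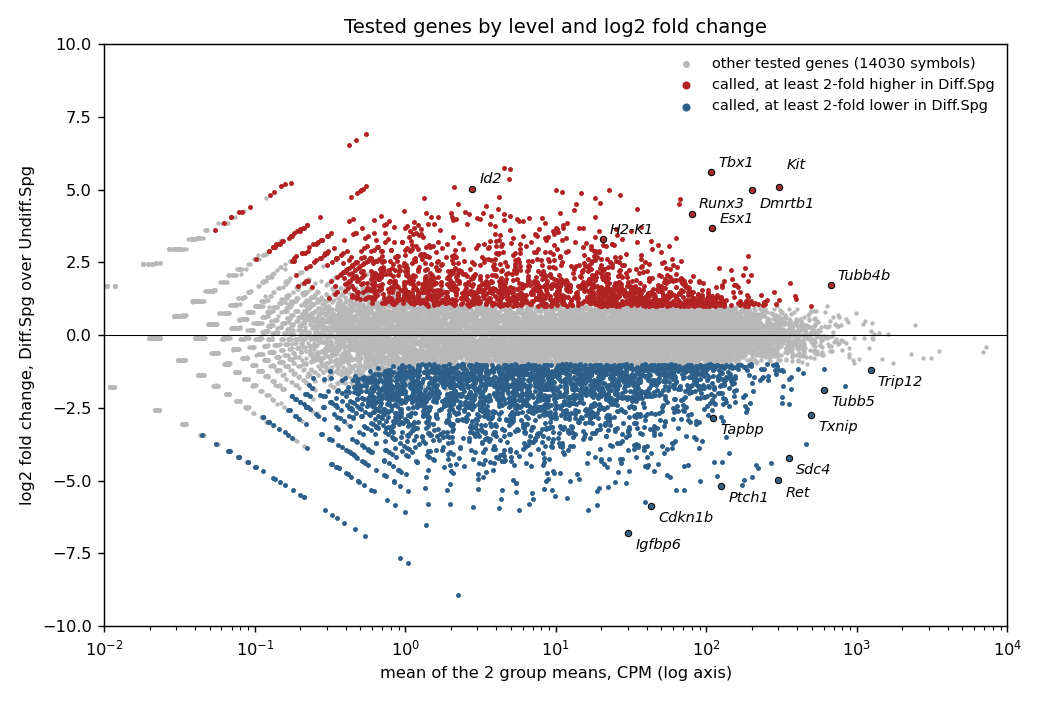
Each point is a tested gene, with the mean of the Diff.Spg and Undiff.Spg levels in CPM on a log axis and the log2 fold change of Diff.Spg over Undiff.Spg on the vertical axis. Red points are the genes at least 2-fold higher and blue points those at least 2-fold lower in Diff.Spg at an adjusted p under 0.05. Kit lies at 5.09 and Igfbp6 at −6.78, and the streaks of points at the far left are genes with only a few reads.

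Among genes with at least 50 CPM in the higher group, the 15 largest rises were led by transcription factor, receptor and kinase genes. Tbx1 (ENSMUSG00000009097, chromosome 16, 18580979 to 18590671 on GRCm38), a T-box factor lost in DiGeorge syndrome, stood at 232, 202 and 199.9 CPM in the 3 Diff.Spg libraries, against 4.83, 5.3 and 2.92 CPM in the 3 Undiff.Spg libraries. Every Diff.Spg library was far above every Undiff.Spg library (log2 fold change 5.60 ± 0.31, adjusted p = 1.28e-09). Cited1, a co-regulator that binds the acetyltransferases CBP and p300, averaged 126 ± 6.61 CPM in Diff.Spg and 5.58 ± 1.15 CPM in Undiff.Spg. Runx3, a runt-domain factor, averaged 152 ± 14.1 CPM in Diff.Spg and 8.46 ± 0.409 CPM in Undiff.Spg. Plk5, a polo-like kinase with a truncated kinase domain, averaged 65.7 ± 7.24 CPM in Diff.Spg and 3.22 ± 0.332 CPM in Undiff.Spg. Ppp1r1b, which encodes the phosphatase inhibitor DARPP-32, averaged 68.6 ± 4.53 CPM in Diff.Spg and 5.18 ± 1.62 CPM in Undiff.Spg. Lrp8, a receptor for reelin and apolipoprotein E, averaged 115 ± 4.18 CPM in Diff.Spg and 11.3 ± 0.666 CPM in Undiff.Spg. Esx1, an X-linked homeobox gene, averaged 203 ± 28.8 CPM in Diff.Spg and 16 ± 3.1 CPM in Undiff.Spg. The other large rises were Kit, Dmrtb1, Pcsk1n, Sept5, Tbkbp1, Trank1 and Coro2a, with log2 fold changes of 3.08 (Coro2a) to 5.09 (Kit).

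The 15 largest falls took in a cell cycle inhibitor, signalling receptors and transcription factors. Cdkn1b (ENSMUSG00000003031, chromosome 6, 134920401 to 134925513), which encodes the cyclin-dependent kinase inhibitor p27, stood at 0.912, 1.73 and 1.56 CPM in the 3 Diff.Spg libraries, against 81.9, 84.1 and 86.4 CPM in the 3 Undiff.Spg libraries. The Diff.Spg level was 58.9-fold lower (log2 fold change −5.88 ± 0.26, adjusted p = 7.37e-10). Ptch1, the receptor of Hedgehog ligands and itself a target of the pathway, stood at 5.19, 7.4 and 7.41 CPM in the 3 Diff.Spg libraries, against 225, 256 and 249.7 CPM in the 3 Undiff.Spg libraries. It was 36.3-fold lower in Diff.Spg (log2 fold change −5.18 ± 0.22, adjusted p = 1.07e-10). Enc1, a kelch protein that binds actin, stood at 7.44, 9.5 and 11.3 CPM in the 3 Diff.Spg libraries, against 326, 345 and 339.7 CPM in the 3 Undiff.Spg libraries. Again no library of one group reached the range of the other (log2 fold change −5.16 ± 0.31, adjusted p = 3.06e-09). Glis3, a zinc finger factor, averaged 13.3 ± 2.77 CPM in Diff.Spg and 388 ± 9.38 CPM in Undiff.Spg. Foxf1, a forkhead factor, averaged 10.9 ± 1.82 CPM in Diff.Spg and 343 ± 14.9 CPM in Undiff.Spg. Arhgef15, an exchange factor for small GTPases, averaged 5.46 ± 0.967 CPM in Diff.Spg and 177 ± 6.23 CPM in Undiff.Spg. All of these were abundant in Undiff.Spg. Rin2, an exchange factor for Rab5, averaged 3.75 ± 0.706 CPM in Diff.Spg and 111 ± 3.84 CPM in Undiff.Spg. Tcl1, an activator of AKT kinases, averaged 1.64 ± 1.06 CPM in Diff.Spg and 56.5 ± 8.05 CPM in Undiff.Spg. The other large falls were Igfbp6, Six4, Foxc2, Dusp6, Ret, Gfra1 and Etv5, with log2 fold changes of −4.82 (Etv5) to −6.78 (Igfbp6).

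The most abundant genes that differed by 2-fold or more were in part other genes, with Kit, Dmrtb1 and Ret again among them. On the higher side, Tubb4b, a beta-tubulin gene, stood at 1074, 1008 and 990.5 CPM in the 3 Diff.Spg libraries, against 312, 319 and 305 CPM in the 3 Undiff.Spg libraries. The sarcoplasmic and endoplasmic reticulum calcium pump gene Atp2a2 averaged 417 ± 21 CPM in Diff.Spg and 149 ± 5.1 CPM in Undiff.Spg. H3f3b, which encodes the replacement histone H3.3, averaged 554 ± 17.4 CPM in Diff.Spg and 233 ± 16 CPM in Undiff.Spg. Uba2, part of the enzyme that activates SUMO, averaged 419 ± 12.8 CPM in Diff.Spg and 184 ± 9.18 CPM in Undiff.Spg. These rises were of 2- to 4-fold, smaller than those of Kit or Tbx1. On the lower side, Trip12, a ubiquitin ligase gene, stood at 777, 733 and 732 CPM in the 3 Diff.Spg libraries, against 1752, 1748 and 1651 CPM in the 3 Undiff.Spg libraries. Txnip, which encodes an inhibitor of glucose uptake and of thioredoxin, averaged 128 ± 6.7 CPM in Diff.Spg and 857 ± 22.8 CPM in Undiff.Spg. Sdc4, a heparan sulfate proteoglycan of the cell surface, stood at 29.7, 35.7 and 42.5 CPM in the 3 Diff.Spg libraries, against 716, 656 and 638 CPM in the 3 Undiff.Spg libraries. Of these, Sdc4 fell most (18.6-fold, adjusted p = 1.72e-08).

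**Figure D2:**
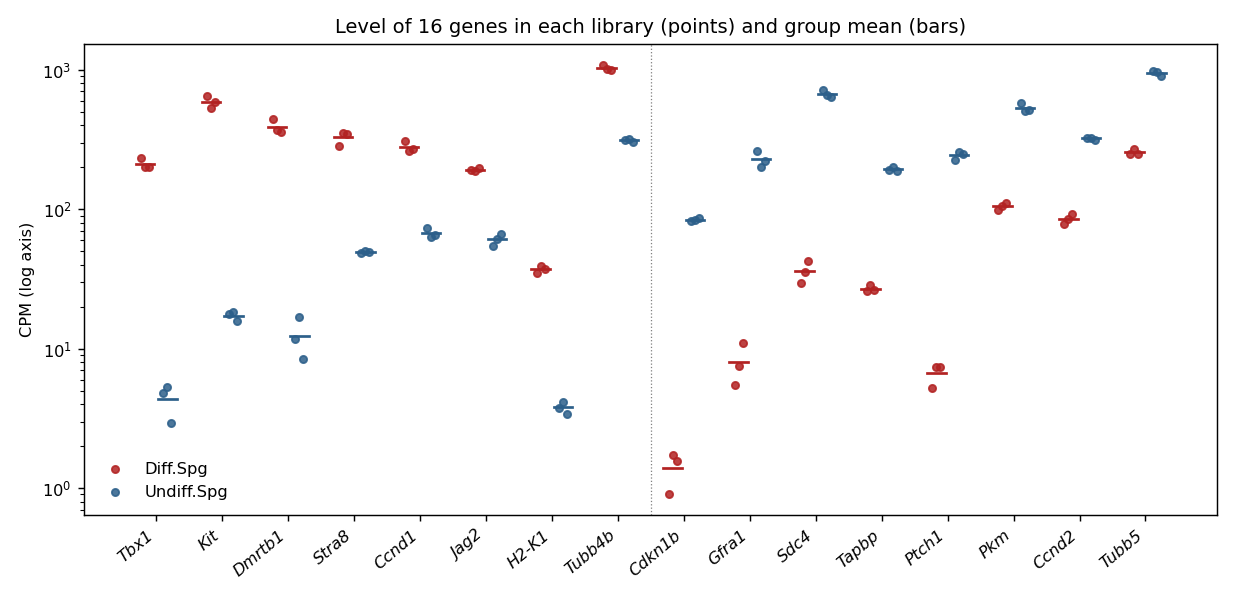
Points are the levels of 16 genes in each library in CPM on a log axis, with Diff.Spg in red to the left of Undiff.Spg in blue for each gene, and bars are the group means. The 8 genes left of the dotted line were higher and the 8 right of it lower in Diff.Spg, and for each gene the 3 libraries of one group lie clear of the 3 of the other.

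Genes of cell division had the largest share of higher members among the lists. Mitosis is run by cyclin B with CDK1, the Aurora and Polo kinases, kinesin motors and the kinetochore, and many of their genes are switched on late in the cell cycle through a promoter element called the cell cycle genes homology region, CHR. Of 58 tested genes of mitotic entry and the spindle, 46 were higher and 1 (3 with the 6 libraries fitted alone) lower in Diff.Spg, with a median log2 fold change of 0.77, against 20.4% higher and 23% lower over all tested genes. Plk1, the kinase that drives mitotic entry, stood at 218, 201 and 182 CPM in the 3 Diff.Spg libraries, against 38.2, 44.4 and 38.9 CPM in the 3 Undiff.Spg libraries. Prc1, which bundles microtubules of the central spindle, stood at 243, 234 and 222 CPM in the 3 Diff.Spg libraries, against 59, 65.9 and 60.9 CPM in the 3 Undiff.Spg libraries. Both were higher in all 3 Diff.Spg libraries, 4.94-fold for Plk1 and 3.76-fold for Prc1. Kif4, a chromosome-bound kinesin, averaged 94.8 ± 5.75 CPM in Diff.Spg and 30.1 ± 3.05 CPM in Undiff.Spg. Ube2c, which loads ubiquitin for the anaphase-promoting complex, averaged 114 ± 3.16 CPM in Diff.Spg and 44.4 ± 4.04 CPM in Undiff.Spg. Knl1, a kinetochore scaffold, averaged 76.9 ± 7.17 CPM in Diff.Spg and 31 ± 4.21 CPM in Undiff.Spg. Ccna2, cyclin A2, averaged 256 ± 9.31 CPM in Diff.Spg and 113 ± 5.81 CPM in Undiff.Spg. The rise was smaller for Cdc20, the activator of the anaphase-promoting complex (224 ± 10.1 CPM in Diff.Spg and 110.4 ± 10.6 CPM in Undiff.Spg). Bub3, a checkpoint protein, was the member that fell (80.1 ± 0.922 CPM in Diff.Spg and 121 ± 8.04 CPM in Undiff.Spg, adjusted p = 0.0336), and it did not pass with any 1 of the 6 libraries left out (adjusted p = 0.0505 to 0.0961).

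Promoters of these genes were read from RefSeq's table for GRCm38.p6, 150 bases before to 50 after the start, and 3 that hold the CHR letters are shown with TTTGAA in capitals.
Plk1 (chr7:122159285-122159484, plus strand): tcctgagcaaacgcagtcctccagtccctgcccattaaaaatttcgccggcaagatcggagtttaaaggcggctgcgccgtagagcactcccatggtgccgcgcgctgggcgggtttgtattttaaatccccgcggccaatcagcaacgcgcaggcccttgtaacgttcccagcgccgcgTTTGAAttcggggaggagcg
Prc1 (chr7:80294301-80294500, plus strand): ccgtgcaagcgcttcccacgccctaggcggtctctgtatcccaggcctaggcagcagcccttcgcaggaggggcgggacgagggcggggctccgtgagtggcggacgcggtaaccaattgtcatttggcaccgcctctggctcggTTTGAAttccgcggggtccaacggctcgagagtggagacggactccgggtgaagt
Cdc20 (chr4:118437294-118437493, minus strand): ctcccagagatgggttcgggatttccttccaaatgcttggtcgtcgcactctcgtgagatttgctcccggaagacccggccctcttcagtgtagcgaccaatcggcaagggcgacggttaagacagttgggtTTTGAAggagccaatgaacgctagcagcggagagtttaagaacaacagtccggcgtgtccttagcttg
The letters TTTGAA were searched on both strands from 250 bases before to 50 after the start. They stood in 33 of the 50 genes of the mitotic list that the promoter table holds (66.0%), against 20.2% of its 27025 genes and 14.9% of the 13184 tested genes it holds. The letters CCAAT, the box that often lies upstream of a CHR, stood in 72.0% of the same 50 genes and in 41.1% of all genes of the table. They were also frequent in the other 2 lists searched, at 60.5% of replication genes and 57.6% of MHC and interferon genes. TTTGAA stood in 18.4% and 6.06% of those lists. None of the motifs searched here holds another. A match is a run of letters and not a site shown to be used.

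Genes of DNA replication were mostly higher as well, by smaller factors. Replication starts where ORC, CDC6 and CDT1 load the MCM2 to MCM7 helicase, and most of these genes are under E2F factors. Of 46 tested members, 29 were higher and 3 lower in Diff.Spg, with a median log2 fold change of 0.56. Cdc6 stood at 87.8, 79.2 and 85.9 CPM in the 3 Diff.Spg libraries, against 30.5, 33.8 and 34.3 CPM in the 3 Undiff.Spg libraries. Ticrr, which recruits CDC45 to the helicase, stood at 72.9, 66.6 and 74.5 CPM in the 3 Diff.Spg libraries, against 21.7, 24.9 and 27.1 CPM in the 3 Undiff.Spg libraries. The groups did not overlap for either gene (log2 fold change 1.36 ± 0.16, adjusted p = 4.02e-06 for Cdc6, and log2 fold change 1.54 ± 0.23, adjusted p = 4.85e-05 for Ticrr). Gmnn, which encodes geminin, the inhibitor of CDT1, averaged 80.1 ± 1.71 CPM in Diff.Spg and 30.7 ± 2.4 CPM in Undiff.Spg. Pold2, a subunit of polymerase delta, averaged 155 ± 7.28 CPM in Diff.Spg and 60.7 ± 2.51 CPM in Undiff.Spg. Pcna, the sliding clamp, averaged 124 ± 13.9 CPM in Diff.Spg and 62.6 ± 7.19 CPM in Undiff.Spg. Chaf1b, a subunit of the histone chaperone CAF-1, fell (22.8 ± 1.7 CPM in Diff.Spg and 58.6 ± 3.28 CPM in Undiff.Spg, adjusted p = 8.64e-05), while its partner gene Chaf1a rose (124 ± 3.87 CPM in Diff.Spg and 68.2 ± 2.12 CPM in Undiff.Spg, adjusted p = 1.01e-05). Of 11 tested replication-dependent histone genes, whose mRNAs lack a poly(A) tail, 9 did not pass.

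Of the 38 replication genes in the promoter table, 14 (36.8%) hold at least 1 of the E2F letters TTTCCCGC, TTTCGCGC, TTTGCCGC or TTTGGCGC on either strand, against 2.6% of all 27025 genes and 4.16% of the tested genes it holds. Those of Cdc6 and Orc1 are shown, with the matches in capitals.
Cdc6 (chr11:98908001-98908200, plus strand): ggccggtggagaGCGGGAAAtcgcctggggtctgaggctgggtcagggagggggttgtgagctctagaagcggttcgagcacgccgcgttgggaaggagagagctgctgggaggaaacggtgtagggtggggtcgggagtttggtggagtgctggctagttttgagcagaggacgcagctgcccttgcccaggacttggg
Orc1 (chr4:108579304-108579503, plus strand): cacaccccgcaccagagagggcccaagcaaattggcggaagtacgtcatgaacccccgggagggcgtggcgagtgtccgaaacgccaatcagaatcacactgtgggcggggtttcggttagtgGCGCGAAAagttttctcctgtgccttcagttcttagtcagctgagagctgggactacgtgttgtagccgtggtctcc
Orc1, which encodes the largest subunit of the origin recognition complex, averaged 88.9 ± 5.29 CPM in Diff.Spg and 44.3 ± 1.65 CPM in Undiff.Spg (adjusted p = 9.62e-06).

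The genes that set the pace of G1 moved in both directions. D-type cyclins activate CDK4 and CDK6, E-type cyclins activate CDK2, the INK4 and CIP/KIP inhibitors block them, and RB-family proteins hold E2F factors back until they are phosphorylated. Of 28 tested members, 11 were higher and 11 lower, with a median log2 fold change of −0.17. Ccnd1 stood at 311, 259.6 and 271 CPM in the 3 Diff.Spg libraries, against 72.7, 63.2 and 65.7 CPM in the 3 Undiff.Spg libraries. Ccnd2 stood at 78, 85.1 and 91.8 CPM in the 3 Diff.Spg libraries, against 324, 325 and 314 CPM in the 3 Undiff.Spg libraries. The cyclins therefore moved in opposite directions, 4.17-fold higher for Ccnd1 and 3.78-fold lower for Ccnd2, with no overlap between groups in either. Per kilobase of exon, Ccnd1 averaged 59.6 in Diff.Spg and 14.3 in Undiff.Spg and Ccnd2 9.03 in Diff.Spg and 34.1 in Undiff.Spg (mean CPM per kilobase). The E-type cyclin genes rose together, Ccne1 with 53.7 ± 3.84 CPM in Diff.Spg and 18.1 ± 2.24 CPM in Undiff.Spg, and Ccne2 with 69.5 ± 5.75 CPM in Diff.Spg and 17.7 ± 1.65 CPM in Undiff.Spg. Cdk2, their partner, averaged 155 ± 6.7 CPM in Diff.Spg and 75.2 ± 4.8 CPM in Undiff.Spg, while Cdk4 averaged 114 ± 4.82 CPM in Diff.Spg and 242 ± 6.37 CPM in Undiff.Spg. Among the inhibitors, Cdkn1b and Cdkn1c (p57, 13.3 ± 2.97 CPM in Diff.Spg and 51.5 ± 3.67 CPM in Undiff.Spg) were lower, and Cdkn2c (p18, 18.5 ± 2.26 CPM in Diff.Spg and 2.84 ± 0.665 CPM in Undiff.Spg) was higher. Rb1 was lower (70.7 ± 0.275 CPM in Diff.Spg and 128 ± 6.64 CPM in Undiff.Spg) and its relative Rbl1 (p107) higher (49.6 ± 2.82 CPM in Diff.Spg and 26 ± 2.59 CPM in Undiff.Spg).

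E2F factors drive the genes of S phase and of mitosis, as activators or as repressors. Of 17 tested E2F factors and regulators, 7 were higher and 2 (1 with any 1 of the 6 libraries left out, 4 with the 6 libraries fitted alone) lower. E2f2, an activator, stood at 40.1, 35.5 and 40.5 CPM in the 3 Diff.Spg libraries, against 3.72, 5.84 and 4.24 CPM in the 3 Undiff.Spg libraries. The repressors of late S phase, E2f7 (74.5 ± 7.2 CPM in Diff.Spg and 28.4 ± 1.51 CPM in Undiff.Spg) and E2f8 (48.7 ± 5.27 CPM in Diff.Spg and 17.7 ± 3.7 CPM in Undiff.Spg), rose by smaller factors. Foxm1, the forkhead factor of mitotic genes, averaged 333 ± 16.5 CPM in Diff.Spg and 149.9 ± 17.1 CPM in Undiff.Spg. Mybl1, which encodes A-MYB, the activator of pachytene genes, fell (1.76 ± 0.205 CPM in Diff.Spg and 7.96 ± 1.46 CPM in Undiff.Spg, adjusted p = 2.94e-06).

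**Figure D3:**
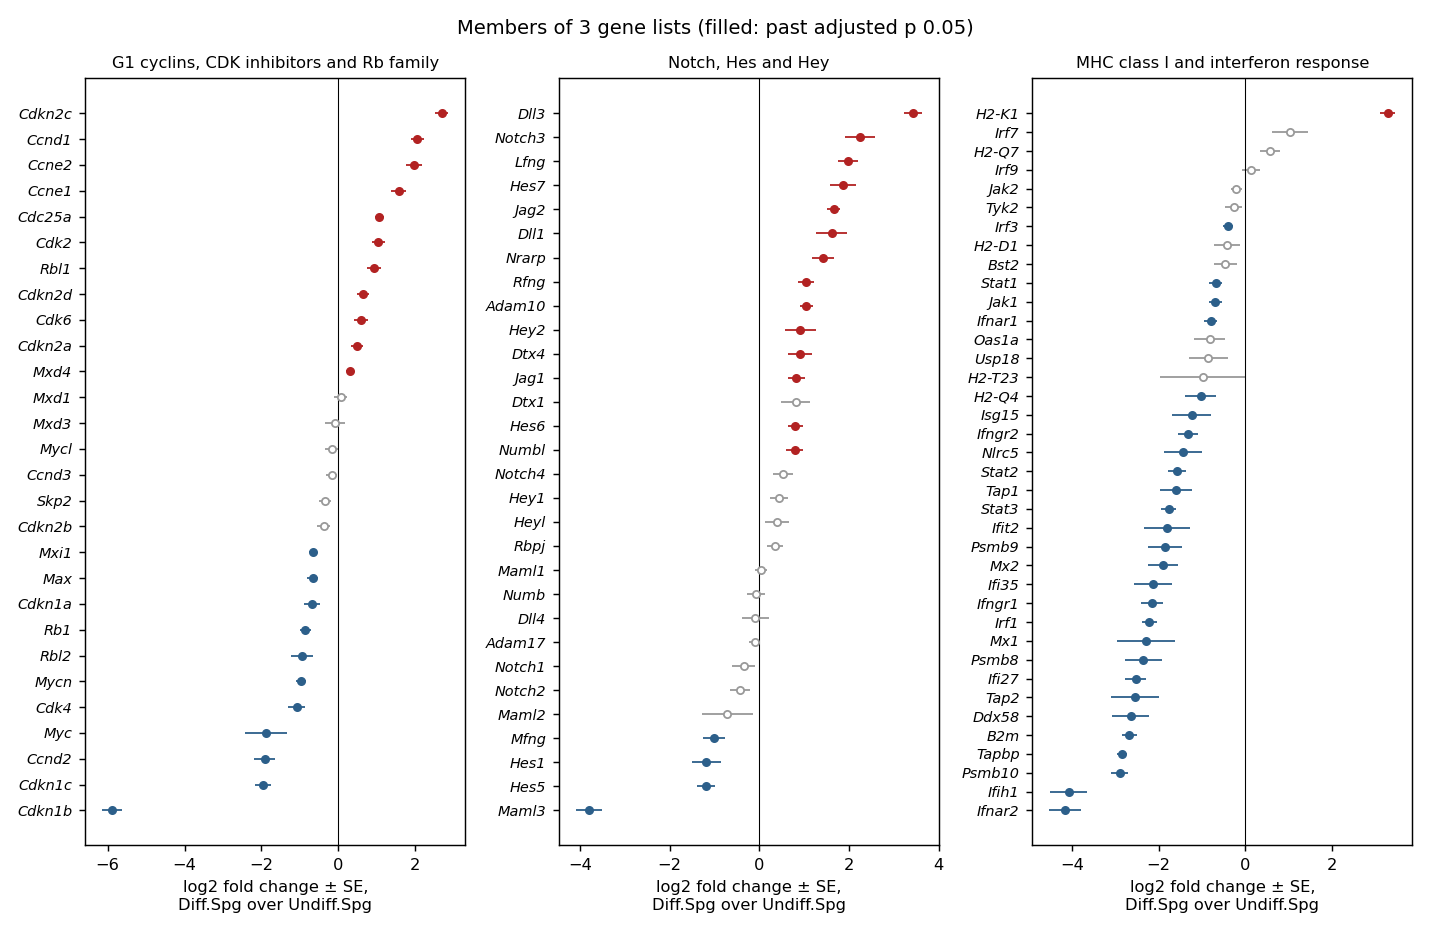
Log2 fold change of Diff.Spg over Undiff.Spg with its standard error for every tested member of 3 gene lists, filled where adjusted p was under 0.05. The G1 list holds 11 higher and 11 lower members with Cdkn1b lowest, the Notch list 14 and 4, and the MHC and interferon list 1 and 27.

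Genes of GDNF and FGF signalling were more often lower, receptors and feedback inhibitors among them. GDNF acts through RET and GFRA1 and FGF through its receptors, and both switch on ERK, whose activity induces Sprouty, SPRED and DUSP inhibitors and the ETV factors. Of 30 tested members, 17 were lower and 3 (7 with the 6 libraries fitted alone) higher in Diff.Spg, with a median log2 fold change of −1.04. The pathway includes Gfra1, a defining gene of the labels, so this count is not independent of them. Spry4 stood at 0.772, 1.08 and 0.809 CPM in the 3 Diff.Spg libraries, against 40.8, 31 and 38.2 CPM in the 3 Undiff.Spg libraries. The 40.5-fold lower level of Spry4 was the largest fall of the list, close to that of Dusp6 at −5.33 on the log2 scale (for Spry4, adjusted p = 2.08e-08). Il17rd, an FGF antagonist also called SEF, averaged 12 ± 1.18 CPM in Diff.Spg and 78.9 ± 1.83 CPM in Undiff.Spg. Etv4 averaged 8.5 ± 1.51 CPM in Diff.Spg and 80.03 ± 5.08 CPM in Undiff.Spg. Lhx1, a LIM homeobox gene induced by GDNF in cultured spermatogonia, averaged 1.22 ± 0.625 CPM in Diff.Spg and 21.3 ± 1.76 CPM in Undiff.Spg. Bcl6b, another such gene, averaged 7.25 ± 0.220 CPM in Diff.Spg and 58.3 ± 4.24 CPM in Undiff.Spg. The FGF receptor genes that passed were higher. Fgfr3 stood at 47.4, 43.6 and 46.9 CPM in the 3 Diff.Spg libraries, against 7.57, 9.0 and 9.18 CPM in the 3 Undiff.Spg libraries. It rose 5.35-fold (adjusted p = 2.42e-08), and Fgfr4 also rose, at a low level (2.48 ± 0.327 CPM in Diff.Spg and 1.09 ± 0.566 CPM in Undiff.Spg). The 10 members that did not pass include the other FGF receptor genes and the RAS, MEK and ERK genes of the list.

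Of 36 tested genes of the stem and progenitor state, 32 were lower and 2 higher in Diff.Spg, with a median log2 fold change of −2.44. This list overlaps the genes that define the labels in this field. The size of the fall differed widely among them. Nanos3, a translational repressor, averaged 2.29 ± 0.787 CPM in Diff.Spg and 58.7 ± 7.13 CPM in Undiff.Spg. Upp1, uridine phosphorylase, averaged 5.33 ± 1.72 CPM in Diff.Spg and 74.9 ± 5.21 CPM in Undiff.Spg. Egr4, an early growth response factor, stood at 64.2, 63.4 and 63.4 CPM in the 3 Diff.Spg libraries, against 826, 865 and 870.4 CPM in the 3 Undiff.Spg libraries. Sall1, a zinc finger factor, averaged 31 ± 1.39 CPM in Diff.Spg and 219.8 ± 16.8 CPM in Undiff.Spg. Smaller falls, of 2- to 3-fold, included Sall4 at 183 ± 3.82 CPM in Diff.Spg and 422 ± 9.93 CPM in Undiff.Spg, and Sox3 at 192 ± 12.8 CPM in Diff.Spg and 443 ± 46.3 CPM in Undiff.Spg. Foxo1 averaged 164 ± 12.5 CPM in Diff.Spg and 418 ± 12.1 CPM in Undiff.Spg. The genes that rose were Lmo1, a LIM-only cofactor (41.9 ± 0.794 CPM in Diff.Spg and 12.4 ± 2.92 CPM in Undiff.Spg), and Epcam, an adhesion molecule of epithelia and germ cells (138 ± 13.4 CPM in Diff.Spg and 60.6 ± 5.33 CPM in Undiff.Spg).

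Of 25 tested genes tied to differentiating spermatogonia, 15 were higher and 3 (8 with the 6 libraries fitted alone) lower, with a median log2 fold change of 0.69. This list holds Kit, a defining gene of the labels, so its count is not independent of them. Beside Kit, Tbx1 and Dmrtb1, Rhox13, an X-linked homeobox gene, stood at 55.4, 53.9 and 52.3 CPM in the 3 Diff.Spg libraries, against 16.3, 13.8 and 13.8 CPM in the 3 Undiff.Spg libraries. Sox12 stood at 353, 344 and 365 CPM in the 3 Diff.Spg libraries, against 148, 160.5 and 151 CPM in the 3 Undiff.Spg libraries. Both groups of values were separate in these genes (3.68-fold for Rhox13 and 2.31-fold for Sox12). Pramef12, needed by spermatogonial stem cells, fell (107 ± 6.23 CPM in Diff.Spg and 277 ± 4.81 CPM in Undiff.Spg), as did the X-linked mRNA export gene Nxf2 (201 ± 0.289 CPM in Diff.Spg and 331 ± 21.6 CPM in Undiff.Spg). Of the 20 tested genes of retinoic acid handling, 8 were higher and 3 (5 with the 6 libraries fitted alone) lower. Rbp4, a retinol carrier, averaged 35.9 ± 1.91 CPM in Diff.Spg and 8.31 ± 1.42 CPM in Undiff.Spg. Rxrb, a partner of the retinoic acid receptors, rose (111 ± 4.37 CPM in Diff.Spg and 63.6 ± 2.06 CPM in Undiff.Spg) and Rarg, one of these receptors, fell (91.6 ± 10.1 CPM in Diff.Spg and 155 ± 6.56 CPM in Undiff.Spg, adjusted p = 0.0011).

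Notch signalling genes were more often higher than lower. Delta and Jagged ligands on a cell activate Notch receptors on its neighbour, and Fringe enzymes tune the receptors. Usual targets are the repressors HES1, HES5 and the HEY proteins. Of 30 tested members, 14 were higher and 4 lower, with a median log2 fold change of 0.66. Jag2 stood at 190.0, 189 and 197 CPM in the 3 Diff.Spg libraries, against 54.3, 61 and 66.8 CPM in the 3 Undiff.Spg libraries. Dll3, an atypical ligand that dampens signalling within a cell, stood at 14.2, 14.5 and 11.9 CPM in the 3 Diff.Spg libraries, against 1.24, 1.54 and 0.974 CPM in the 3 Undiff.Spg libraries. Both were higher in every Diff.Spg library (log2 fold change 1.66 ± 0.14, adjusted p = 9.58e-08 for Jag2, and log2 fold change 3.42 ± 0.20, adjusted p = 1.88e-09 for Dll3). Among modifiers, Lfng averaged 43.8 ± 4.96 CPM in Diff.Spg and 11.1 ± 1.12 CPM in Undiff.Spg. The protease gene Adam10, which cuts activated Notch, averaged 101 ± 6.9 CPM in Diff.Spg and 48.8 ± 1.62 CPM in Undiff.Spg. Nrarp, a target and feedback inhibitor, averaged 35.5 ± 1.96 CPM in Diff.Spg and 13.2 ± 1.2 CPM in Undiff.Spg. The HES genes did not share a direction. Hes1 fell (25.1 ± 1.57 CPM in Diff.Spg and 56.9 ± 3.95 CPM in Undiff.Spg, adjusted p = 0.00741), as did Hes5 (2.86 ± 0.586 CPM in Diff.Spg and 6.46 ± 0.126 CPM in Undiff.Spg, adjusted p = 0.00016), and Hes6 rose (23 ± 0.595 CPM in Diff.Spg and 13.2 ± 2.0 CPM in Undiff.Spg, adjusted p = 0.00109). Maml3, a co-activator of Notch, fell most (3.11 ± 0.572 CPM in Diff.Spg and 43.7 ± 1.82 CPM in Undiff.Spg, log2 fold change −3.80).

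TGF-beta and BMP genes split evenly, with 12 higher and 12 lower of 35. Each share was 34.3%, against 20.4% higher and 23% lower over all tested genes. The 4 Id genes, which encode inhibitors of helix-loop-helix factors and are usual BMP targets, parted. Id2 stood at 6.11, 5.24 and 4.86 CPM in the 3 Diff.Spg libraries, against 0.130, 0.0671 and 0.278 CPM in the 3 Undiff.Spg libraries. Id4, a mark of stem spermatogonia, averaged 2.62 ± 0.602 CPM in Diff.Spg and 50.6 ± 8.19 CPM in Undiff.Spg. Id1 rose (3.17 ± 0.665 CPM in Diff.Spg and 1.14 ± 0.410 CPM in Undiff.Spg) and Id3 fell (1.93 ± 0.283 CPM in Diff.Spg and 5.04 ± 0.440 CPM in Undiff.Spg), both at low levels. For Id2 the log2 fold change was 5.02, and 5.64 without Undiff.Spg replicate 3. Of the SMAD genes, the effector Smad3 fell (25.8 ± 1.92 CPM in Diff.Spg and 77.8 ± 4.9 CPM in Undiff.Spg), as did the inhibitors Smad6 (6.64 ± 0.494 CPM in Diff.Spg and 27.3 ± 1.26 CPM in Undiff.Spg) and Smad7 (20.9 ± 1.65 CPM in Diff.Spg and 49.3 ± 4.87 CPM in Undiff.Spg), while Smad1, a BMP effector, rose (74.6 ± 8.5 CPM in Diff.Spg and 35.3 ± 1.51 CPM in Undiff.Spg). Bmp7 rose (101 ± 8.4 CPM in Diff.Spg and 50.9 ± 2.21 CPM in Undiff.Spg).

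Of 39 tested WNT pathway genes, 13 were higher and 10 lower. The share higher was 33.3%, against 20.4% over all tested genes, and the share lower (25.6%) was near the 23%. Frizzled receptor genes moved in opposite directions. Fzd2 stood at 5.47, 4.43 and 5.11 CPM in the 3 Diff.Spg libraries, against 71.2, 79.8 and 65.9 CPM in the 3 Undiff.Spg libraries. Fzd9 stood at 13.9, 13 and 11.5 CPM in the 3 Diff.Spg libraries, against 2.48, 2.15 and 1.67 CPM in the 3 Undiff.Spg libraries. Fzd2 was 14.5-fold lower and Fzd9 6.05-fold higher. Lrp5, a co-receptor, rose (129 ± 8.01 CPM in Diff.Spg and 48.1 ± 3.81 CPM in Undiff.Spg), as did the feedback genes Axin2 (67.5 ± 0.936 CPM in Diff.Spg and 36.8 ± 2.12 CPM in Undiff.Spg) and Nkd1 (71.4 ± 4.05 CPM in Diff.Spg and 30.8 ± 1.78 CPM in Undiff.Spg). The transcription factor gene Tcf7l2 fell (3.69 ± 0.490 CPM in Diff.Spg and 29.5 ± 4.05 CPM in Undiff.Spg), as did Sfrp1, which encodes a secreted WNT antagonist (9.55 ± 0.667 CPM in Diff.Spg and 41.9 ± 1.28 CPM in Undiff.Spg).

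Receptors and ligands known from axon guidance were more often higher than lower. Of 51 tested, 21 were higher and 9 (19 with the 6 libraries fitted alone) lower. The share higher was 41.2%, against 20.4% over all tested genes, and the share lower was 17.6%, against 23%. Ephb4, a receptor for ephrin-B2, stood at 131, 109 and 106 CPM in the 3 Diff.Spg libraries, against 18.4, 20.1 and 21.5 CPM in the 3 Undiff.Spg libraries. Its 5.76-fold rise was among the larger ones of abundant genes of the list (adjusted p = 7.05e-08). The ligand gene Efnb1 averaged 28.5 ± 2.34 CPM in Diff.Spg and 5.86 ± 0.502 CPM in Undiff.Spg and Efnb2 5.43 ± 0.207 CPM in Diff.Spg and 0.630 ± 0.124 CPM in Undiff.Spg. Unc5b, a netrin receptor, averaged 81.6 ± 5.28 CPM in Diff.Spg and 23.1 ± 1.89 CPM in Undiff.Spg. Sema6b averaged 34.6 ± 0.358 CPM in Diff.Spg and 7.18 ± 0.476 CPM in Undiff.Spg. On the lower side stood the semaphorin receptor genes Plxnb1 (19.9 ± 0.283 CPM in Diff.Spg and 78.6 ± 8.18 CPM in Undiff.Spg) and Plxnb2 (5.58 ± 0.455 CPM in Diff.Spg and 38.6 ± 4.02 CPM in Undiff.Spg), and the ephrin-A receptor gene Epha2 (7.29 ± 0.626 CPM in Diff.Spg and 44 ± 5.61 CPM in Undiff.Spg).

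Adhesion genes moved both ways, 18 higher and 21 lower of 59 (30.5% and 35.6%, against 20.4% and 23% over all tested genes). Among heparan sulfate proteoglycans, Sdc4 fell as given above and Sdc1 rose. Sdc1 stood at 117, 102 and 112 CPM in the 3 Diff.Spg libraries, against 37.2, 36.1 and 33.1 CPM in the 3 Undiff.Spg libraries. Among laminins, Lamb1 stood at 52.4, 52.7 and 56.3 CPM in the 3 Diff.Spg libraries, against 322, 312 and 315 CPM in the 3 Undiff.Spg libraries. Lamc1 fell as well (33.1 ± 2.2 CPM in Diff.Spg and 118 ± 6.62 CPM in Undiff.Spg), whereas Lama5 rose (269.6 ± 7.14 CPM in Diff.Spg and 149.8 ± 21.9 CPM in Undiff.Spg). Among genes of tight junction proteins in the list, falls were seen for F11r, which encodes JAM-A (26.8 ± 1.88 CPM in Diff.Spg and 179 ± 1.89 CPM in Undiff.Spg), Ocln, for occludin (3.18 ± 0.678 CPM in Diff.Spg and 33.3 ± 0.427 CPM in Undiff.Spg), and Tjp1, for ZO-1 (182 ± 9.21 CPM in Diff.Spg and 521 ± 36.2 CPM in Undiff.Spg). Of the cadherins, Cdh1 fell (12.9 ± 0.719 CPM in Diff.Spg and 58 ± 2.21 CPM in Undiff.Spg) and Cdh2 rose (46.9 ± 3.77 CPM in Diff.Spg and 14.7 ± 2.19 CPM in Undiff.Spg). Some of these genes are also made by Sertoli, endothelial and myoid cells, whose marker sums are given above. Of the tested markers, 0 higher and 5 lower of 15 passed for Sertoli cells and 1 and 3 of 11 for myoid cells. For endothelial cells 2 (1 without Undiff.Spg replicate 1 or 2 or Diff.Spg replicate 2 or 3) and 5 of 8 passed. The part of these cells was not tested.

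**Figure D4:**
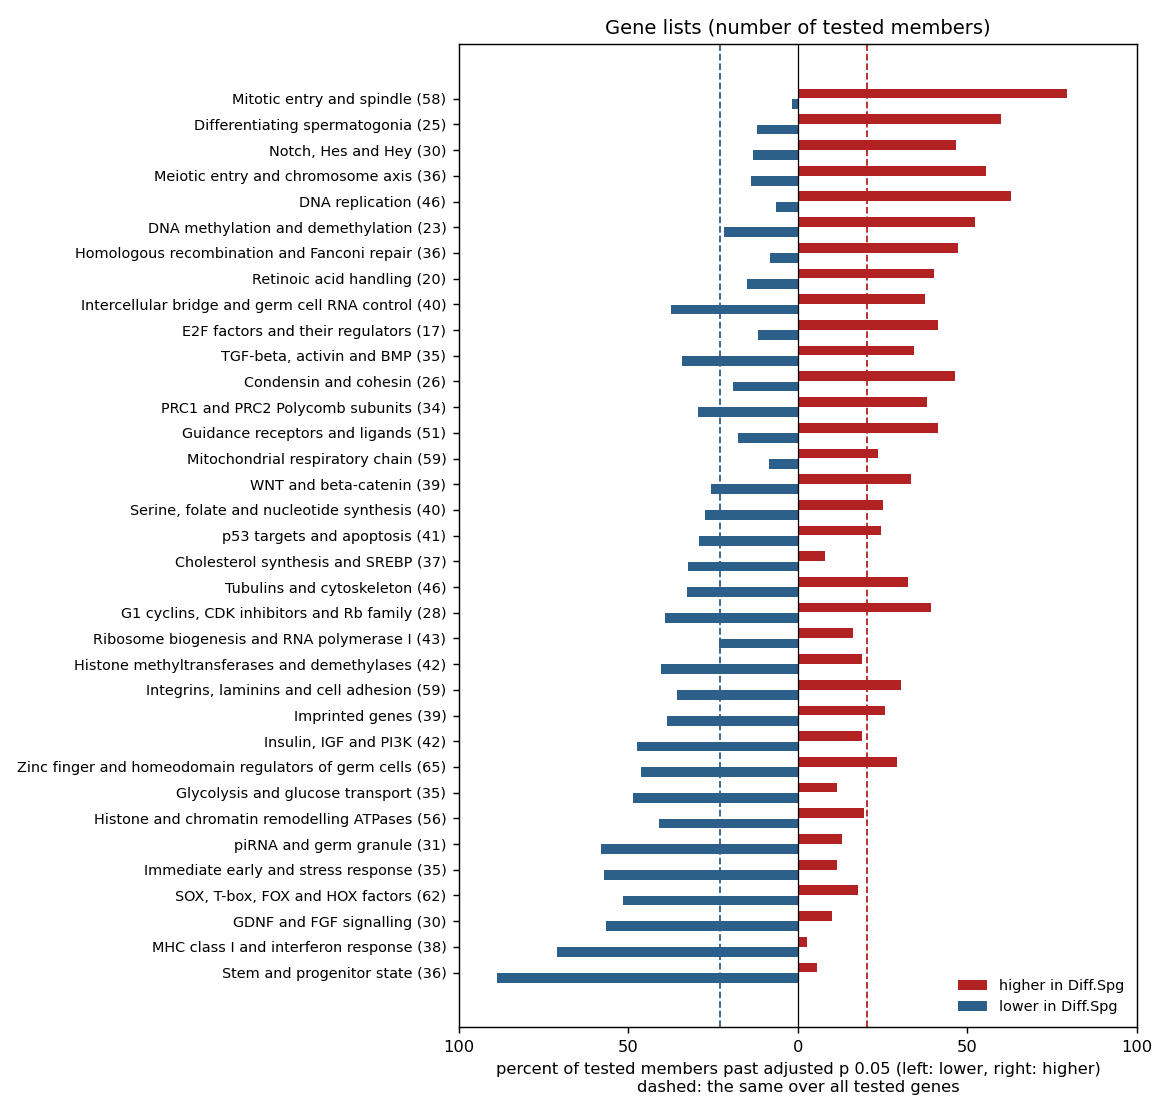
Percent of the tested members of each gene list that were higher (red, to the right) or lower (blue, to the left) in Diff.Spg at an adjusted p under 0.05, ordered by the median log2 fold change of the list. The marker lists of other cell types and the replication-dependent histones are not drawn. Dashed lines are the shares over all tested genes, 20.4% higher and 23% lower. The mitotic list reaches furthest to the right with 46 of 58 members, and the stem and progenitor list furthest to the left with 32 of 36.

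Developmental transcription factors fell more often than they rose. Of 62 tested SOX, T-box, forkhead and HOX genes, 32 were lower and 11 higher, with a median log2 fold change of −0.98. Sox13 stood at 12, 17 and 19.5 CPM in the 3 Diff.Spg libraries, against 273, 251 and 279.9 CPM in the 3 Undiff.Spg libraries. Tbx3 stood at 5.82, 6.26 and 5.48 CPM in the 3 Diff.Spg libraries, against 53.1, 60.9 and 52.2 CPM in the 3 Undiff.Spg libraries. Both fell in all 3 libraries (log2 fold change −4.05 ± 0.25, adjusted p = 4.36e-09 for Sox13, and log2 fold change −3.24 ± 0.24, adjusted p = 7.83e-08 for Tbx3). Sox4 averaged 46.7 ± 1.6 CPM in Diff.Spg and 162 ± 7.27 CPM in Undiff.Spg. Foxk1 averaged 30.5 ± 1.57 CPM in Diff.Spg and 103 ± 3.8 CPM in Undiff.Spg. Hoxc4 averaged 0.412 ± 0.0301 CPM in Diff.Spg and 19.2 ± 1.32 CPM in Undiff.Spg, and Hoxb9, in another cluster, averaged 3.43 ± 1.51 CPM in Diff.Spg and 0.377 ± 0.193 CPM in Undiff.Spg and rose. Of 65 zinc finger and homeodomain genes, 19 were higher and 30 lower. Tgif1, a repressor of retinoid and TGF-beta targets, averaged 3.13 ± 0.701 CPM in Diff.Spg and 42.7 ± 6.35 CPM in Undiff.Spg. Klf7 averaged 31.1 ± 0.818 CPM in Diff.Spg and 121 ± 5.46 CPM in Undiff.Spg. Pou5f1, the pluripotency gene OCT4, averaged 4.07 ± 0.479 CPM in Diff.Spg and 27.8 ± 2.08 CPM in Undiff.Spg. Rises were fewer and included Lhx8, a LIM homeobox gene needed in oocytes (33.8 ± 1.2 CPM in Diff.Spg and 4.7 ± 0.841 CPM in Undiff.Spg), Otx1 (12.5 ± 1.82 CPM in Diff.Spg and 2.72 ± 0.553 CPM in Undiff.Spg) and Nr6a1, the germ cell nuclear factor (148 ± 3.74 CPM in Diff.Spg and 55.1 ± 5.85 CPM in Undiff.Spg).

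Genes of meiosis were in part higher. Meiosis replaces mitotic cohesin with REC8 and SMC1B, builds an axis of SYCP and HORMAD proteins, and cuts DNA through SPO11. Of 36 tested members, 20 were higher and 5 lower in Diff.Spg, with a median log2 fold change of 0.65. Mei1, needed for meiotic breaks, stood at 68.6, 62 and 66.7 CPM in the 3 Diff.Spg libraries, against 16.2, 15.5 and 19.1 CPM in the 3 Undiff.Spg libraries. Ythdc2, an RNA helicase that acts with MEIOC to end the mitotic programme, stood at 68.9, 63.4 and 62.3 CPM in the 3 Diff.Spg libraries, against 24.8, 23.6 and 28.5 CPM in the 3 Undiff.Spg libraries. Neither gene had overlapping groups (3.88-fold higher for Mei1 and 2.53-fold for Ythdc2). Rbm46, an RNA-binding partner of that pair, averaged 93.4 ± 7.06 CPM in Diff.Spg and 44.1 ± 1.3 CPM in Undiff.Spg. Smc1b averaged 234 ± 12.2 CPM in Diff.Spg and 120.2 ± 17.1 CPM in Undiff.Spg. Psmc3ip, which encodes the partner of MND1 in strand invasion, averaged 29.6 ± 1.29 CPM in Diff.Spg and 15 ± 1.45 CPM in Undiff.Spg. The 5 members that fell had low levels, among them Mnd1 with 2.29 ± 0.632 CPM in Diff.Spg and 8.47 ± 1.04 CPM in Undiff.Spg, Rad21l with 4.94 ± 1.03 CPM in Diff.Spg and 13.2 ± 1.2 CPM in Undiff.Spg, and Meiob with 0.833 ± 0.214 CPM in Diff.Spg and 2.78 ± 0.152 CPM in Undiff.Spg. Spermatocyte markers were higher in Diff.Spg as a sum, as given above, and the part of later cells was not tested.

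Repair and chromosome structure genes were more often higher than lower. Of 36 homologous recombination and Fanconi anaemia genes, 17 were higher and 3 (5 with the 6 libraries fitted alone) lower. Bard1, the partner of BRCA1, averaged 76.1 ± 1.92 CPM in Diff.Spg and 34.8 ± 3.14 CPM in Undiff.Spg. Fanca averaged 121 ± 5.51 CPM in Diff.Spg and 55.3 ± 8.21 CPM in Undiff.Spg, and Fancd2 averaged 176 ± 8.06 CPM in Diff.Spg and 86.1 ± 0.695 CPM in Undiff.Spg. The X-linked Fancb fell (0.567 ± 0.230 CPM in Diff.Spg and 3.65 ± 0.424 CPM in Undiff.Spg, adjusted p = 0.000259). Of 26 condensin and cohesin genes, 12 were higher and 5 (3 with any 1 of the 6 libraries left out, 8 with the 6 libraries fitted alone) lower. Nipbl, the loader of cohesin, stood at 30.8, 38.1 and 39.7 CPM in the 3 Diff.Spg libraries, against 156, 145 and 174 CPM in the 3 Undiff.Spg libraries. It fell 4.37-fold (adjusted p = 7.79e-07), while the cohesin acetyltransferase gene Esco2 rose (143 ± 6.77 CPM in Diff.Spg and 68 ± 2.69 CPM in Undiff.Spg).

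Chromatin regulators changed subunit by subunit. Polycomb complexes PRC1 and PRC2 keep genes silent, and PRC1 exists in forms set by its PCGF and CBX subunits. Of 34 tested subunits, 13 (21 with the 6 libraries fitted alone) were higher and 10 lower. Cbx7 stood at 19.3, 21.1 and 25 CPM in the 3 Diff.Spg libraries, against 85.2, 98.6 and 117 CPM in the 3 Undiff.Spg libraries. This CBX gene was lower in every Diff.Spg library (log2 fold change −2.20 ± 0.19, adjusted p = 1.31e-07). Of the PCGF genes, Pcgf2 rose (88.2 ± 2.34 CPM in Diff.Spg and 43 ± 2.76 CPM in Undiff.Spg), as did Pcgf5 (172 ± 4.64 CPM in Diff.Spg and 111 ± 7.44 CPM in Undiff.Spg), and Pcgf6 fell (9.23 ± 0.767 CPM in Diff.Spg and 60.2 ± 3.28 CPM in Undiff.Spg). The PRC2 core gene Suz12 rose (138 ± 5.78 CPM in Diff.Spg and 81.9 ± 4.25 CPM in Undiff.Spg), and Ezh1, one of its enzymes, fell (113 ± 7.67 CPM in Diff.Spg and 193 ± 11.3 CPM in Undiff.Spg). Of 42 histone methyltransferase and demethylase genes, 8 (14 with the 6 libraries fitted alone) were higher and 17 lower. Setd1b, an H3K4 methyltransferase gene, stood at 12.4, 9.56 and 10.02 CPM in the 3 Diff.Spg libraries, against 88.1, 92 and 100.4 CPM in the 3 Undiff.Spg libraries. Its relative Kmt2c was lower too (95.6 ± 2.95 CPM in Diff.Spg and 303 ± 47.1 CPM in Undiff.Spg). Kdm3a, a demethylase of H3K9, averaged 63.1 ± 5.11 CPM in Diff.Spg and 242 ± 1.61 CPM in Undiff.Spg. Ehmt1, which methylates that residue, rose (239.8 ± 10.9 CPM in Diff.Spg and 119.8 ± 4.0 CPM in Undiff.Spg).

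Of 56 acetylation and remodelling genes, 11 (18 with the 6 libraries fitted alone) were higher and 23 lower. Trrap, the scaffold of histone acetyltransferase complexes, stood at 392, 362 and 389.8 CPM in the 3 Diff.Spg libraries, against 1132, 1266 and 1449 CPM in the 3 Undiff.Spg libraries. Arid2 (22.5 ± 1.61 CPM in Diff.Spg and 125 ± 7.9 CPM in Undiff.Spg) and Chd7 (32.3 ± 4.59 CPM in Diff.Spg and 126 ± 19.8 CPM in Undiff.Spg), in different remodelling complexes, also fell. The BAF subunit gene Smarcc2 rose (154 ± 5.83 CPM in Diff.Spg and 52.6 ± 3.37 CPM in Undiff.Spg). Of 23 genes of DNA methylation and its removal, 12 were higher and 5 (8 with the 6 libraries fitted alone) lower. Hells, the remodeller that helps methylate repeats, averaged 520.3 ± 23.9 CPM in Diff.Spg and 279.6 ± 13.4 CPM in Undiff.Spg. Zbtb4, a zinc finger protein that binds methylated DNA, averaged 10.4 ± 0.802 CPM in Diff.Spg and 2.75 ± 0.987 CPM in Undiff.Spg. Mbd2, another reader of methylated DNA, fell (53.4 ± 3.54 CPM in Diff.Spg and 104 ± 3.72 CPM in Undiff.Spg). Dnmt3l, a co-factor of de novo methylation in fetal germ cells, fell (0.683 ± 0.234 CPM in Diff.Spg and 5.21 ± 0.605 CPM in Undiff.Spg). Imprinted genes did not move as a group, with 10 (6 without Undiff.Spg replicate 1 or Undiff.Spg replicate 2) higher and 15 lower of 39. Grb10, an adaptor that restrains insulin signalling, stood at 245, 230.1 and 246 CPM in the 3 Diff.Spg libraries, against 45.3, 55.3 and 52.3 CPM in the 3 Undiff.Spg libraries. Gnas (12.3 ± 1.99 CPM in Diff.Spg and 54.2 ± 2.36 CPM in Undiff.Spg) and Peg10 (4.8 ± 0.578 CPM in Diff.Spg and 30.2 ± 2.39 CPM in Undiff.Spg) fell.

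Genes that act on RNA in germ cells parted as well. Of 31 piRNA and germ granule genes, 18 were lower and 4 (2 without Undiff.Spg replicate 2 or Undiff.Spg replicate 3 or Diff.Spg replicate 3) higher, with a median log2 fold change of −0.47. Morc1, needed to silence transposons, stood at 49, 48.2 and 51.5 CPM in the 3 Diff.Spg libraries, against 218, 188 and 182 CPM in the 3 Undiff.Spg libraries. Tdrd5 averaged 61.1 ± 2.59 CPM in Diff.Spg and 200.4 ± 10.8 CPM in Undiff.Spg, and Gtsf1 averaged 23.8 ± 1.75 CPM in Diff.Spg and 72.2 ± 7.19 CPM in Undiff.Spg. Mael (316 ± 2.02 CPM in Diff.Spg and 526 ± 29 CPM in Undiff.Spg) and Ddx4, the vasa helicase (310.5 ± 7.05 CPM in Diff.Spg and 422 ± 15.3 CPM in Undiff.Spg), fell by less. Nanos1 rose (111 ± 5.82 CPM in Diff.Spg and 54.8 ± 2.39 CPM in Undiff.Spg), while Nanos2 and Nanos3 of the same family fell (−5.80 and −4.67 on the log2 scale). Of 40 genes of intercellular bridges and RNA control, 15 (23 with the 6 libraries fitted alone) were higher and 15 lower. Each share was 37.5%, against 20.4% higher and 23% lower over all tested genes. The LIN28 genes moved apart, Lin28b with 74.6 ± 1.86 CPM in Diff.Spg and 32.2 ± 2.04 CPM in Undiff.Spg, and Lin28a with 147 ± 11.2 CPM in Diff.Spg and 499 ± 35.9 CPM in Undiff.Spg. So did the PTB splicing factors, with Ptbp2 at 87.8 ± 1.47 CPM in Diff.Spg and 56.3 ± 1.98 CPM in Undiff.Spg, and Ptbp3 at 52.4 ± 5.11 CPM in Diff.Spg and 255 ± 12.3 CPM in Undiff.Spg. Cpeb2, an mRNA-binding regulator of translation, rose (41.1 ± 1.46 CPM in Diff.Spg and 10.2 ± 0.634 CPM in Undiff.Spg). Igf2bp2 (9.18 ± 1.32 CPM in Diff.Spg and 80.1 ± 5.23 CPM in Undiff.Spg) and Trim71, a let-7 target (196 ± 7.31 CPM in Diff.Spg and 533 ± 16.8 CPM in Undiff.Spg), fell.

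Genes of antigen presentation and interferon response were mostly lower. MHC class I molecules need beta-2-microglobulin, tapasin and peptides cut by the immunoproteasome, and interferon induces many of these genes. Of 38 tested members, 27 were lower and 1 (2 without Undiff.Spg replicate 2, 3 with the 6 libraries fitted alone) was higher in Diff.Spg, with a median log2 fold change of −1.51. Tapbp, the tapasin gene, stood at 26, 28.4 and 26.3 CPM in the 3 Diff.Spg libraries, against 189, 202 and 189 CPM in the 3 Undiff.Spg libraries. B2m stood at 4.91, 3.67 and 4.67 CPM in the 3 Diff.Spg libraries, against 34, 23.4 and 26.9 CPM in the 3 Undiff.Spg libraries. The 3 Diff.Spg libraries were below all Undiff.Spg libraries in both (log2 fold change −2.85 ± 0.13, adjusted p = 1.66e-10 for Tapbp, and log2 fold change −2.67 ± 0.18, adjusted p = 1.16e-08 for B2m). Psmb10, an immunoproteasome subunit, averaged 14.3 ± 0.978 CPM in Diff.Spg and 106 ± 11.7 CPM in Undiff.Spg. Irf1, an interferon-induced factor, averaged 38.8 ± 1.58 CPM in Diff.Spg and 180.5 ± 11.2 CPM in Undiff.Spg. Stat3 averaged 46.5 ± 2.35 CPM in Diff.Spg and 158 ± 4.77 CPM in Undiff.Spg, and the receptor gene Ifngr1 averaged 6.99 ± 1.58 CPM in Diff.Spg and 31.2 ± 2.91 CPM in Undiff.Spg. H2-K1, a class I heavy chain gene, went the other way and stood at 34.6, 39 and 37.4 CPM in the 3 Diff.Spg libraries, against 3.78, 4.16 and 3.41 CPM in the 3 Undiff.Spg libraries. Class I heavy chain genes are near-identical, so reads may be shared among them in ways the counts do not show. Macrophage markers were highest in Undiff.Spg replicate 1, where Tapbp was no higher than in the other 2 and B2m was highest. Without that library 25 members were lower, at a median of −1.65. The macrophage sums of Undiff.Spg replicates 2 and 3 (7.72 and 9.39 CPM) were also above those of Diff.Spg (2.92 to 3.98 CPM). The part of leukocytes in these falls was not tested.

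An interferon response element, searched as GAAA, any 2 bases and GAAA again, on either strand, stands in the promoters of 10 of the 33 members in the promoter table (30.3%), against 3.99% of all its genes and 3.31% of the tested genes it holds. The promoters of B2m and Ifih1 are shown, with the element in capitals.
B2m (chr2:122147537-122147736, plus strand): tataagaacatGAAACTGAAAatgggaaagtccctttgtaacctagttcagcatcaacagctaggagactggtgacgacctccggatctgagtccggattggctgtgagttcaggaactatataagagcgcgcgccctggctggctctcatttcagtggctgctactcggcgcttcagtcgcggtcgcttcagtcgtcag
Ifih1 (chr2:62646206-62646405, minus strand): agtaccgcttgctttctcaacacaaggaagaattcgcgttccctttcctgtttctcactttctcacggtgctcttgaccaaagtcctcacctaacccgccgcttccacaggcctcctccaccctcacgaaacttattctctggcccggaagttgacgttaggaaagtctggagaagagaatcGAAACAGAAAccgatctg
Ifih1, a sensor of double-stranded RNA, averaged 0.746 ± 0.0971 CPM in Diff.Spg and 12.7 ± 3.2 CPM in Undiff.Spg.

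Genes of glucose use were more often lower. Of 35 tested genes of glycolysis and glucose transport, 17 were lower and 4 (7 with the 6 libraries fitted alone) higher, with a median log2 fold change of −0.44. Pdk1, which encodes a kinase that inhibits pyruvate dehydrogenase, stood at 10.7, 11.8 and 14.1 CPM in the 3 Diff.Spg libraries, against 137, 129.5 and 138 CPM in the 3 Undiff.Spg libraries. Slc2a1, the glucose transporter GLUT1, stood at 17.3, 16.2 and 20.05 CPM in the 3 Diff.Spg libraries, against 103, 101 and 101 CPM in the 3 Undiff.Spg libraries. Both fell with no overlap (11-fold for Pdk1 and 5.7-fold for Slc2a1). Pfkp, a phosphofructokinase gene, averaged 7.59 ± 1.02 CPM in Diff.Spg and 39 ± 3.24 CPM in Undiff.Spg, and Eno1 averaged 36.3 ± 0.510 CPM in Diff.Spg and 122 ± 12.6 CPM in Undiff.Spg. Pdk2 rose (38.3 ± 1.33 CPM in Diff.Spg and 14 ± 0.840 CPM in Undiff.Spg), as did Slc2a4, the insulin-regulated transporter GLUT4 (6.75 ± 0.308 CPM in Diff.Spg and 1.1 ± 0.222 CPM in Undiff.Spg). Genes such as Gapdh and Tpi1 have many processed copies in the genome and their low counts are uncertain. Of 59 respiratory chain genes, 14 (8 without Undiff.Spg replicate 3 or Diff.Spg replicate 1, 28 with the 6 libraries fitted alone) were higher and 5 (2 to 3 with any 1 of the 6 libraries left out, 12 with the 6 libraries fitted alone) lower, with a median of 0.13 on the log2 scale. The share higher (23.7%) was near the 20.4% over all tested genes, and the share lower (8.47%) was under the 23%. Ndufa1 led the higher members (24.1 ± 3.24 CPM in Diff.Spg and 8.42 ± 1.54 CPM in Undiff.Spg).

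Of 42 genes of insulin, IGF and PI3K signalling, 20 were lower and 8 (13 with the 6 libraries fitted alone) higher. Pik3cd, a PI3K catalytic subunit, stood at 17, 20.2 and 22.7 CPM in the 3 Diff.Spg libraries, against 147, 159 and 167 CPM in the 3 Undiff.Spg libraries. Ddit4, an inhibitor of mTORC1, averaged 3.39 ± 0.471 CPM in Diff.Spg and 86 ± 1.67 CPM in Undiff.Spg. The receptor genes Insr (0.979 ± 0.330 CPM in Diff.Spg and 12.2 ± 2.01 CPM in Undiff.Spg) and Igf1r (112 ± 6.72 CPM in Diff.Spg and 300.4 ± 10.1 CPM in Undiff.Spg) fell, as did Irs2 (2.46 ± 0.456 CPM in Diff.Spg and 28.1 ± 1.52 CPM in Undiff.Spg). Downstream, Akt1 rose (249 ± 7.82 CPM in Diff.Spg and 139 ± 11.2 CPM in Undiff.Spg), and so did Rheb, the activator of mTORC1 (111 ± 3.24 CPM in Diff.Spg and 63.7 ± 2.55 CPM in Undiff.Spg). Of 37 cholesterol synthesis and SREBP genes, 12 were lower and 3 (11 with the 6 libraries fitted alone) higher. Srebf2, the master factor of the pathway, stood at 383, 358 and 383 CPM in the 3 Diff.Spg libraries, against 839, 847 and 821 CPM in the 3 Undiff.Spg libraries. Scd2, a fatty acid desaturase gene, fell with it (41.3 ± 1.85 CPM in Diff.Spg and 144 ± 13.3 CPM in Undiff.Spg). Of 40 genes of serine, folate and nucleotide synthesis, 10 were higher and 11 (17 with the 6 libraries fitted alone) lower. Phgdh, at the head of serine synthesis, fell (19.4 ± 1.77 CPM in Diff.Spg and 39.3 ± 3.22 CPM in Undiff.Spg), and Psat1, the next enzyme, rose (160.4 ± 10.2 CPM in Diff.Spg and 90.9 ± 4.37 CPM in Undiff.Spg). Mthfd2 rose (117 ± 5.16 CPM in Diff.Spg and 72.5 ± 5.82 CPM in Undiff.Spg), and Slc38a1, a glutamine transporter, fell (2.32 ± 0.181 CPM in Diff.Spg and 24.6 ± 2.73 CPM in Undiff.Spg). Of 43 ribosome biogenesis genes, 7 (2 to 4 with any 1 of the 6 libraries left out, 14 with the 6 libraries fitted alone) were higher and 10 (22 with the 6 libraries fitted alone) lower. The serine list (25.0% higher, 27.5% lower) and the ribosome list (16.3% and 23.3%) were near the 20.4% and 23% over all tested genes.

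Immediate early and stress genes were more often lower, 20 of 35, with 4 (8 with the 6 libraries fitted alone) higher and a median log2 fold change of −0.80. Such genes respond quickly to growth factors. Egr2 stood at 2.74, 4.7 and 5.23 CPM in the 3 Diff.Spg libraries, against 100.5, 81.2 and 91.3 CPM in the 3 Undiff.Spg libraries. Socs3, a feedback inhibitor of cytokine signalling, stood at 4.77, 5.83 and 5.54 CPM in the 3 Diff.Spg libraries, against 51.3, 56.9 and 55.4 CPM in the 3 Undiff.Spg libraries. Zfp36, which destabilises mRNAs, averaged 12.1 ± 0.730 CPM in Diff.Spg and 93.6 ± 5.31 CPM in Undiff.Spg, and Dusp1 averaged 16.7 ± 0.726 CPM in Diff.Spg and 63.7 ± 0.913 CPM in Undiff.Spg. Jun averaged 7.54 ± 1.46 CPM in Diff.Spg and 23.8 ± 0.831 CPM in Undiff.Spg, whereas Fosl2 rose (74.2 ± 7.77 CPM in Diff.Spg and 30.6 ± 2.14 CPM in Undiff.Spg), as did Gadd45b (28.1 ± 2.07 CPM in Diff.Spg and 5.31 ± 1.08 CPM in Undiff.Spg). Of 41 p53 target and apoptosis genes, 10 were higher and 12 lower. These shares (24.4% and 29.3%) were near the 20.4% and 23% over all tested genes. Phlda3, a p53 target that restrains AKT, rose (31 ± 2.42 CPM in Diff.Spg and 5.2 ± 0.369 CPM in Undiff.Spg), as did Apaf1, the scaffold of the apoptosome (56.9 ± 6.0 CPM in Diff.Spg and 24.1 ± 2.04 CPM in Undiff.Spg). Casp9, which that scaffold activates, fell (54.2 ± 1.49 CPM in Diff.Spg and 115 ± 2.71 CPM in Undiff.Spg).

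Tubulin genes moved in opposite directions. Of 46 tested genes of tubulins and the cytoskeleton, which include microtubule-associated and ezrin-family genes, 15 were higher and 15 lower. Each share was 32.6%, against 20.4% higher and 23% lower over all tested genes. Tubb5 stood at 247, 272 and 247 CPM in the 3 Diff.Spg libraries, against 976, 964 and 907 CPM in the 3 Undiff.Spg libraries. It fell 3.72-fold while Tubb4b, given above, rose 3.28-fold. Per kilobase of exon Tubb4b averaged 490.4 in Diff.Spg and 149 in Undiff.Spg and Tubb5 76.7 in Diff.Spg and 285 in Undiff.Spg (mean CPM per kilobase). Tuba3a (1230.4 ± 57.1 CPM in Diff.Spg and 729 ± 28.4 CPM in Undiff.Spg) and Tuba3b (661 ± 39.4 CPM in Diff.Spg and 328 ± 10.5 CPM in Undiff.Spg) rose, but they are near-identical copies and their split is uncertain. The microtubule-associated genes Map1b (104 ± 7.06 CPM in Diff.Spg and 36.3 ± 4.06 CPM in Undiff.Spg) and Map2 (11.3 ± 1.59 CPM in Diff.Spg and 1.34 ± 0.226 CPM in Undiff.Spg) rose. In the ezrin family, Rdx rose (165 ± 4.67 CPM in Diff.Spg and 66.9 ± 3.02 CPM in Undiff.Spg) and Msn fell (11.3 ± 1.29 CPM in Diff.Spg and 48.9 ± 7.87 CPM in Undiff.Spg).

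The 4 later populations, preleptotene (PreL), leptotene and zygotene (LZ), pachytene and diplotene (PD) spermatocytes and round spermatids (RS) as their labels are usually read, show where these changes lie along the series. Of the 1763 genes at least 2-fold higher in Diff.Spg, 592 (33.6%) had their highest mean in Diff.Spg itself, 323 in PreL, 351 in LZ, 221 in PD and 276 in RS. Of the 2753 genes at least 2-fold lower, 1721 (62.5%) had it in Undiff.Spg, 6 in PreL, 163 in LZ, 370 in PD and 493 in RS. The genes used here were chosen for a difference between 2 of the populations, so these shares are a description. Replicate 2 of PreL and replicate 2 of LZ stood apart from their groups, towards PD and RS on the first principal component of the 18 libraries (−77.4 for PreL replicate 2, against −174 and −152 for the other PreL libraries, and −66.7 for LZ replicate 2, against −134 and −124). Without both, 550 of the higher genes (31.2%) had their highest mean in Diff.Spg, 378 in PreL and 344 in LZ, and 1712 of the lower genes (62.2%) had it in Undiff.Spg, 12 in PreL and 165 in LZ. Mean levels in the order Undiff.Spg, Diff.Spg and then PreL, LZ, PD, RS were 19.99, 115, 109.5, 20.8, 0.156 and 0.160 CPM for Ephb4. Its means in Diff.Spg and PreL differed by less than the SD of either group. In the same order they were 5.58, 126, 179, 266, 0.274 and 0.0655 CPM for Cited1, with its highest mean in LZ. They were 1717, 747, 642, 1193, 2154 and 2586 CPM for Trip12, which was lowest in PreL and highest in RS. Coro2a had means of 10.01, 84.7, 57.9, 18.2, 34.1 and 393 CPM, also highest in RS.

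**Figure D5:**
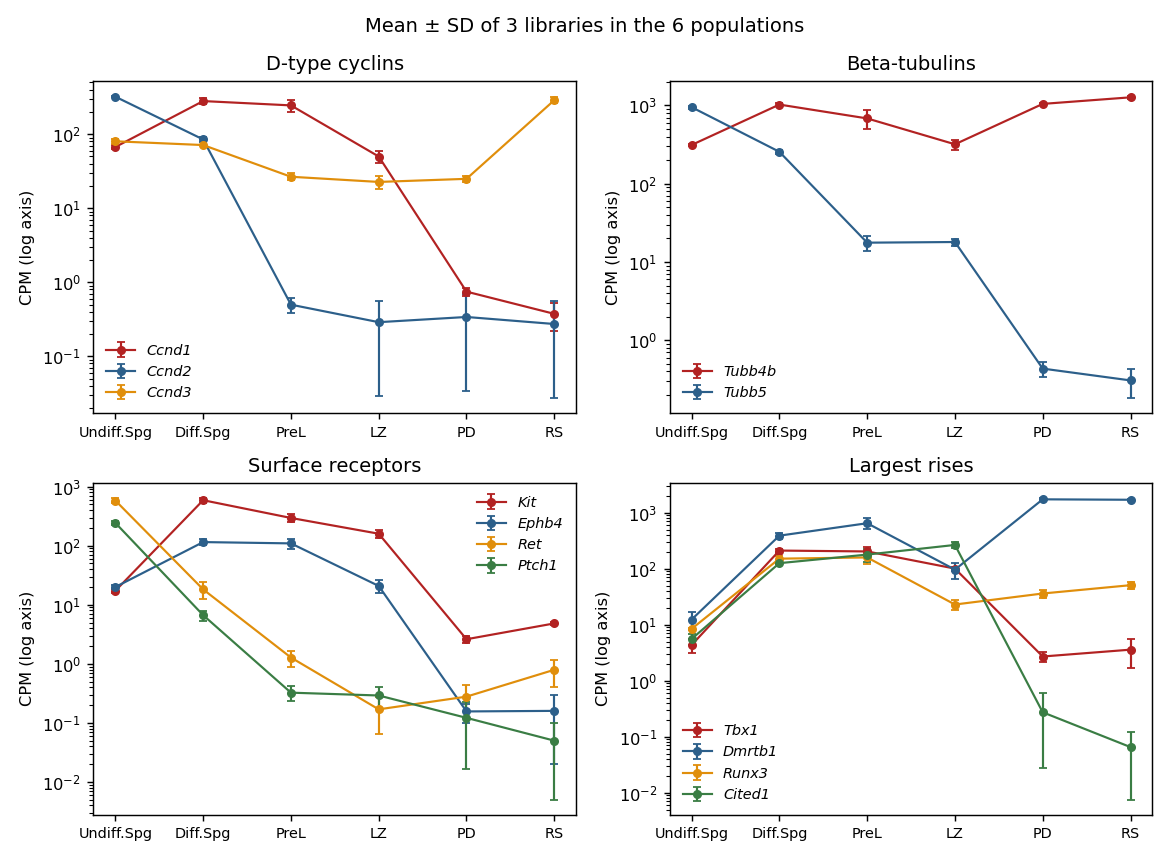
Mean level with SD over 3 libraries in CPM on a log axis in the 6 populations, in the order Undiff.Spg, Diff.Spg, PreL, LZ, PD, RS, for D-type cyclins, beta-tubulins, surface receptors and 4 of the largest rises. Where an SD exceeds its mean, the lower bar is cut short. Ccnd1 and Ccnd2 cross between the first 2 populations, and so do Tubb4b and Tubb5.

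Called genes came from every autosome. The share of tested genes at least 2-fold lower ran from 11.9% on chromosome 5 to 19.9% on chromosome 13. On the X chromosome 71 of 750 tested genes (9.47%) were higher and 124 (16.5%) lower, and of 32 Y-linked genes 3 (9.38%) were lower. Over all tested genes the shares were 9.51% higher and 14.8% lower. Of 833 lincRNA genes, 35 (4.2%) were higher and 87 (10.4%) lower, and of 15363 protein-coding genes 1558 (10.1%) and 2469 (16.1%).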

How the data were processed

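RNA of sorted germ cells was measured as the authors' raw counts of reads per gene, deposited as whole numbers and not scaled. The submitters' processing notes name the tools cutadapt, HTSeq, DESeq2 and STAR 2.4.2a and the build GRCm38, and give no role or order for them. Neither strand setting nor annotation release was stated in those sources, so it is not known whether reads of overlapping and antisense genes were told apart. The labels' protocols name no molecular identifiers, so counts are of reads and not of molecules.

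Of 46603 gene IDs, 46091 (98.9%) were found in GENCODE M21, which gave names and GRCm38 coordinates. Genes were kept by filterByExpr over the 6 groups (18547), scaled by TMM and tested 2-sided in R 4.3.3 by the quasi-likelihood functions of edgeR 4.0.16 (a single model of all 18 libraries in 6 groups, common biological coefficient of variation 0.2025), with Benjamini-Hochberg adjustment over all tested genes. Counts of genes at 2-fold carry that condition and an adjusted p under 0.05; named genes and list members carry the adjusted p alone. Standard errors were taken as the size of the log2 fold change divided by the root of F. The fit was tested on simulated data.

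The comparison, its members and the 43 gene lists (1387 distinct tested genes), written from general knowledge, were chosen with earlier results of these data known. Lists were counted, with no set test. Some genes stand in several lists. Named genes are Kit and Gfra1, the 15 largest rises and falls with at least 50 CPM in the higher group, the 10 most abundant called genes in each direction, and in each list up to 5 called members of largest fold each way and others given by value; predicted, Riken and mitochondrially encoded genes were left out of the largest and the most abundant. Some of these genes are not reported here. Promoter letters were searched in RefSeq's GRCm38.p6 table after the counts were known.

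Pairing by replicate number was checked on deviations from the group means, by correlation, and the same numbers gave 0.0199, 0.251 and 0.149. Diff.Spg replicates 2 and 3, but not 1, correlated best with their own number. The main fit did not pair the samples. Alternatives were RLE scaling, total library size, 2 other filters, the 6 libraries alone, DESeq2 1.42.0, a replicate block, each library left out and, added later, replicate 2 of PreL and LZ left out.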

Additional observations from a re-analysis of the deposited data

How the results depend on the processing

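Genes at least 2-fold higher in Diff.Spg numbered 1763, with 1618 to 1898 under RLE scaling, total library size only, both other filters, the 6 libraries fitted alone, the replicate block and DESeq2, and 1597 to 1722 with 1 library left out. Those at least 2-fold lower numbered 2753, with 2604 to 3032 under the same alternatives and 2603 to 2716 with 1 library left out. Without the fold condition they were 3788 and 4273. Of the 1387 distinct list genes, 411 were higher and 433 lower, with 358 to 374 and 377 to 392 when 1 library was left out. With at least 2-fold added, chosen after seeing the data, 188 were higher and 302 lower. The planned removal of a fold condition could not be applied to list members, which carry none. With the 6 libraries fitted alone list members numbered 566 and 565, and 26 of the 86 counts of the 43 lists moved by over 1.5 times; at most 3 of them did under another scaling, filter or tool. These were E2F factors lower (2, with 1 on total library size and 4 by DESeq2), MHC and interferon genes higher (1, with 2 on total library size and by DESeq2), respiratory chain genes lower (5, with 3 without a filter), cholesterol genes higher (3, with 5 on total library size) and ribosome biogenesis genes higher (7, with 4 under RLE scaling and without a filter).

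Without replicate 2 of PreL and of LZ, which stood apart and which enter the shared estimate of spread, a choice made after seeing the data, 1904 genes were at least 2-fold higher and 2990 lower, and 457 and 466 list members passed. Of the 86 list counts 6 moved by over 1.5 times, lower E2F factors to 4, lower mitotic genes to 2, higher replication-dependent histones to 2 against 0, lower respiratory chain genes to 8, higher MHC and interferon genes to 2 and lower round spermatid markers to 2 against 1.

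Replicate numbers are shared between the groups. With the replicate block 1749 genes were at least 2-fold higher and 2735 lower, and with the block and the 6 libraries alone, a fit chosen after seeing the data, 1759 and 2689. Diff.Spg replicate 1 correlated more with Undiff.Spg replicate 3 (0.0864) than with its own number (0.0199), so not every library matched its number best. Diff.Spg replicates 2 and 3 did, at 0.251 and 0.149, with −0.216 to 0.00539 for their other pairs. The block moved the lower count of the E2F list to 1 and left every named gene on its side of the threshold.

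Of 243 named genes, 241 kept their direction and their side of the threshold under all alternatives. The exceptions were Bub3, as given, and Dmrt1, which passed with the 6 libraries alone, with and without the block, and with PreL and LZ replicate 2 left out. RLE scaling and DESeq2 shifted the median log2 fold change of all genes by −0.03. Depth limits genes of a few reads, for which fitted folds depend on the prior count.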
